A study of Mus musculus with 15 samples.

Results

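Hearts at 7 d of CELF2 induction were compared with hearts at 24 h of induction, 3 mice against 3, to ask which mRNAs changed between an early and a late point of the time course. The comparison covers every gene whose mean over these 6 hearts reached 1 RPKM, which is 10576 of the 16199 genes in the deposited table and 6 of its 15 hearts. RPKM is the number of reads per kilobase of coding sequence, scaled to the mapped reads of the library. The rule uses the mean level of a gene over both groups and not its difference between them.

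The mice were FVB animals of 14 to 16 weeks with the genotype MHCrtTA/TRECUGBP2, the progeny of a cross between 2 transgenic lines. MHCrtTA expresses a reverse tetracycline transactivator from the Myh6 promoter, which is active in cardiomyocytes, and TRECUGBP2 is a Tet-responsive transgene for human CELF2 with a FLAG tag. Normal food was removed before food with 2 g/kg doxycycline was given for 7 d or 24 h, so that the length of doxycycline treatment and the length of CELF2 induction cannot be told apart. This dose is that of the labels, and the study's list of animals gives a higher one. The table also holds induced hearts at 12 h and 72 h and control hearts, which carried only MHCrtTA and were given doxycycline over 72 h, 3 of each. Each library was made from the ventricle of a separate mouse after removal of the atria and a part of the apex. The sources used here give neither the sex nor the hour of harvest.

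CELF proteins bind GU-rich RNA. In the nucleus they regulate alternative splicing, and in the cytoplasm they act on the translation and the decay of their target mRNAs. CELF levels are high in the embryonic heart and low in the adult heart, and on many targets CELF proteins act against the MBNL proteins, which prevail in the adult.

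The read depth of the libraries is unknown, because neither counts nor read totals are part of the table. The number of genes listed at 0, which stands in for it, was 1937, 1551 and 1513 in the 7 d hearts and 1892, 1766 and 1725 in the 24 h hearts. Spearman correlations between pairs of the 6 hearts, across genes, lay between 0.977 and 0.992. A code in the sample titles, whose meaning is not given, divides the hearts into runs called A, B and C here. Replicate 1 of each group belongs to run A, the other 7 d hearts to run C and the other 24 h hearts to run B. The summed level of 4 Y-linked mRNAs was 77.8, 59.3 and 58.6 RPKM in the 7 d hearts and 0.02, 53.5 and 52.3 RPKM in the 24 h hearts, so that 24 h replicate 1 lacks these mRNAs. Values below are listed from replicate 1 to replicate 3, and a single value in parentheses after a gene is its log2 difference, 7 d minus 24 h, on log2(RPKM + 0.5). The libraries are of separate mice, and the parts of run and of Y-linked mRNA in the differences were not tested except as covariates.

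At 7 d, 1194 genes were higher and 403 lower than at 24 h, by limma on log2(RPKM + 0.5) with a Benjamini-Hochberg adjusted p under 0.05. These are 11.3% and 3.81% of the genes tested, and 15.1% in all. Differences of at least 2-fold were fewer, with 134 genes higher and 84 lower, and differences of at least 4-fold were found for 4 and 7 genes. The hearts of the groups did not overlap for 33.8% of all genes, 2653 of them higher and 922 lower at 7 d, and for 1580 of the 1597 called genes. The first principal component of the 6 hearts, with 51.7% of the variance, placed the 7 d hearts at 12.5 to 23.4 and the 24 h hearts at -24.2 to -16.0.

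The balance of increases and decreases depended on how the hearts were scaled to each other. The median log2 difference of all genes was 0.13, against which single genes and lists are read here. Median-ratio scaling brought it to 0.01 and gave 727 genes higher and 744 lower, so that increases were 49.4% of all calls rather than 74.8%. With upper-quartile scaling the numbers were 676 and 822, and with quantile normalization 709 and 729. Without single hearts the number of higher genes was 568 (7 d replicate 2), 587 (7 d replicate 3), 720 (24 h replicate 1) and 644 (24 h replicate 3), and the number of lower genes was 237 without 7 d replicate 2. With the run and the Y-linked mRNA level together as covariates, 365 genes were higher and 310 lower, and 107 of the 244 genes chosen for a closer account lost the call they had. These are referred to as the covariates together below.

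**Figure D1:**
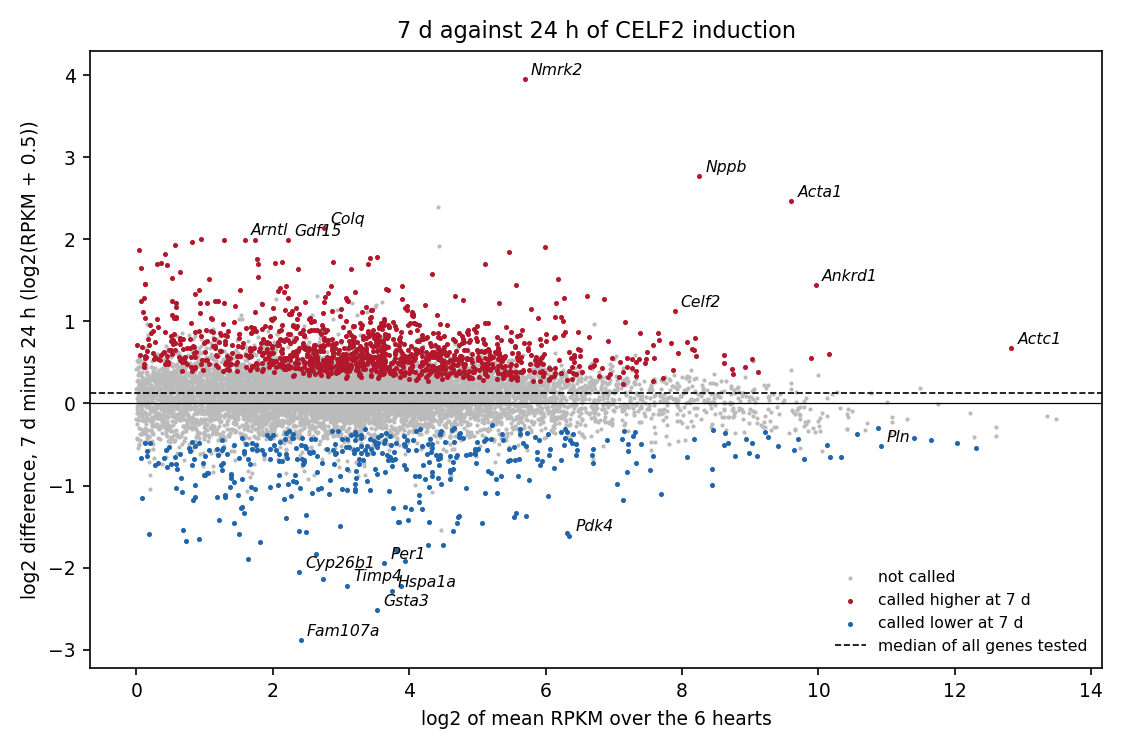
Log2 difference between 7 d and 24 h of CELF2 induction (vertical axis, on log2(RPKM + 0.5)) against the log2 of the mean RPKM over the 6 hearts (horizontal axis) for 10576 genes. Red points are the 1194 genes called higher at 7 d, blue points the 403 called lower, and the dashed line marks the median of all genes at 0.13. Nmrk2 at 3.96 and Fam107a at -2.88 are the outermost called genes.

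Run A holds a heart of each group and so gives a comparison within a run. With both run A hearts left out, 677 genes were higher and 219 lower at 7 d. The run A pair entered the filter of 1 RPKM but not the fit that gave these calls. In the pair, 655 of the 677 and 217 of the 219 had the same sign, with median log2 differences of 0.61 and -0.74. Over all genes, 61.6% were higher in the 7 d heart of that pair and the median was 0.09. The 24 h heart of the pair is the heart without Y-linked mRNA.

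**Figure D2:**
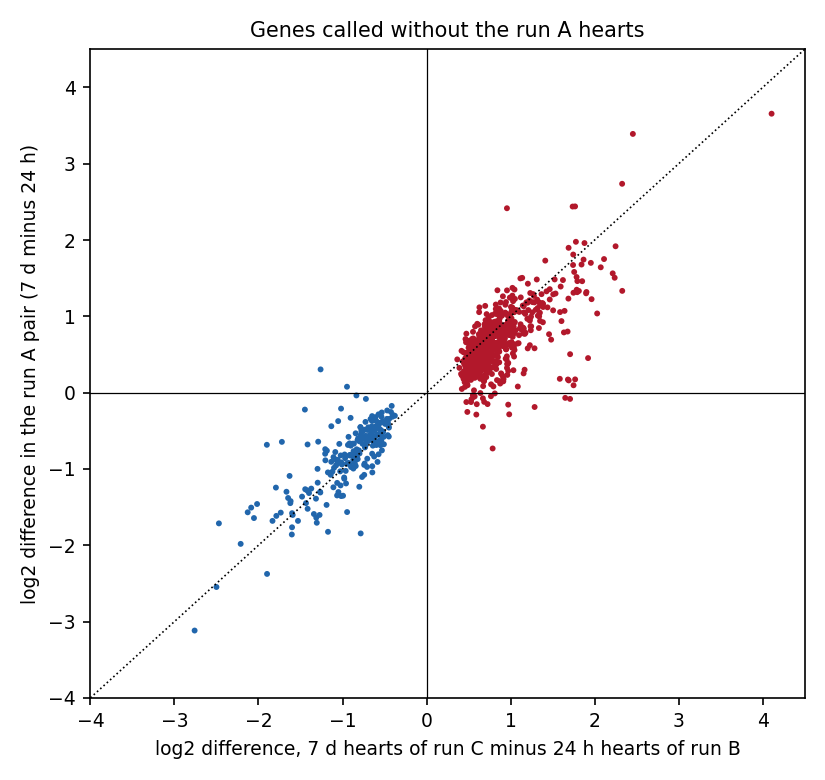
Log2 difference in the run A pair (7 d heart minus 24 h heart, vertical axis) against the log2 difference between the 7 d hearts of run C and the 24 h hearts of run B (horizontal axis), for the 677 genes called higher (red) and the 219 called lower (blue) when the run A hearts were left out. The dotted line marks equal differences. In all, 655 red points lie above 0 and 217 blue points lie below 0 on the vertical axis.

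Celf2 mRNA was about 2.16 times as high at 7 d as at 24 h. Celf2 had 359, 353 and 261 RPKM at 7 d, against 173, 165 and 112 RPKM at 24 h. The lowest 7 d heart lay above the highest 24 h heart, and a two-sided exact permutation test reached p = 0.1, the smallest p that 3 hearts against 3 allow. From limma, the log2 difference was 1.12 (standard error 0.26, adjusted p = 0.0103), within run A the ratio was 2.07, and with median-ratio scaling it was 1.99. The limma call ended without 24 h replicate 3 (log2 difference 0.93, adjusted p = 0.0541) and with the covariates together. Reads from the human transgene and from mouse Celf2 (listed under its older symbol Cugbp2, chromosome 2 of mm9 from 6460751 to 7002348 (minus strand)) are not separated in this value, and exons of Celf2 overlap those of Gm17437 on the opposite strand.

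The other measured members of both families were not called. Celf1, the paralog of the induced gene, had 12.9, 11.8 and 8.5 RPKM at 7 d, against 13.7, 12.4 and 11.03 RPKM at 24 h (log2 difference -0.17, adjusted p = 0.636). Mbnl1 (log2 difference 0.50, adjusted p = 0.25) and Mbnl2 (log2 difference 0.32, adjusted p = 0.117), which encode the opposing splicing factors, were listed at 28.7 ± 5.76 RPKM at 7 d and 20.3 ± 4.897 RPKM at 24 h (SD, n = 3 each) and at 49.4 ± 4.32 RPKM at 7 d and 39.4 ± 5.06 RPKM at 24 h (SD, n = 3 each). For Celf1 and Mbnl1 the hearts of the groups overlapped.

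Among 46 splicing regulators 8 were higher and 1 lower, or 17.4% and 2.17%, beside 11.3% and 3.81% of all genes. Their median log2 difference of 0.13 was like that of all genes, and with median-ratio scaling the balance turned to 2 higher and 5 lower. Rbfox1, which encodes a splicing factor of muscle and neurons that binds GCAUG, fell to 6.53, 5.61 and 6.66 RPKM at 7 d, against 9.04, 14.1 and 13.96 RPKM at 24 h (log2 difference -0.90, standard error 0.17, adjusted p = 0.00351). Its 7 d hearts lay below every 24 h heart. Hnrnpll, an hnRNP L relative known from T cell splicing, rose (log2 difference 0.72, adjusted p = 0.000336), as did Rbm4 (0.67), which regulates muscle exons, and Hnrnpr (0.47). These 4 kept their calls without any single heart, while Hnrnpr lost its call with median-ratio scaling (log2 difference 0.34, adjusted p = 0.052). Of 55 genes of mRNA decay and deadenylation 3 were higher and 2 lower, or 5.45% and 3.64%. Each of these calls ended without at least 1 of the single hearts.

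Genes known to rise in the stressed or hypertrophic ventricle, several of which are also active in the fetal heart, were often higher at 7 d. Of 21 tested, 8 were higher and 1 lower at 7 d, the higher ones being 38.1%, beside 11.3% of all genes. Of the 8, Ankrd2 had a mean under 1 RPKM at 24 h and passed the filter through the 7 d hearts. In a fit with no filter 8 of these 21 were called higher, and at a mean of at least 5 RPKM 6 were. Listed genes under 1 RPKM were not counted in either. All 8 increases kept their calls without any single heart and with the covariates together. Nppb encodes B-type natriuretic peptide, a hormone secreted by stretched cardiomyocytes, and lies on chromosome 4 of mm9 from 147359897 to 147361314 (plus strand). It had 637, 538 and 416 RPKM at 7 d, against 60.3, 80.3 and 91.8 RPKM at 24 h. The groups were far apart, with no overlap (log2 difference 2.77, standard error 0.20, adjusted p = 1.57e-06).

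Acta1, the skeletal alpha-actin that the adult ventricle normally expresses at a low level relative to Actc1 (chromosome 8 of mm9 from 126415669 to 126418651 (minus strand)), had 1032, 1342 and 1550.0 RPKM at 7 d, against 154, 301 and 274 RPKM at 24 h. The groups did not overlap (log2 difference 2.46, standard error 0.27, adjusted p = 7.06e-05). Ankrd1, which encodes a stretch-responsive ankyrin repeat protein bound to titin, had 1445, 1486 and 1331 RPKM at 7 d, against 270.4, 764 and 687 RPKM at 24 h (log2 difference 1.44, standard error 0.30, adjusted p = 0.00532). The 24 h heart of run A was the lowest of the 6 hearts for both genes. Ankrd2, its relative from slow skeletal muscle, was at 1.91 ± 0.411 RPKM at 7 d and 0.153 ± 0.0153 RPKM at 24 h (SD, n = 3 each), with a log2 difference of 1.87.

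Secreted and signalling members moved with them. Gdf15, a stress-induced member of the TGF-beta family, had 6.99, 10.4 and 5.93 RPKM at 7 d, against 0.88, 2.22 and 1.72 RPKM at 24 h (log2 difference 1.99, standard error 0.25, adjusted p = 0.000181). Tnfrsf12a, the receptor for the cytokine TWEAK, had 78.02, 131 and 92.5 RPKM at 7 d, against 19.7, 29.4 and 29.8 RPKM at 24 h (log2 difference 1.91, standard error 0.27, adjusted p = 0.00044), and its exons overlap those of Hcfc1r1 on the opposite strand. No 7 d heart overlapped a 24 h heart for either gene. Rcan1, an inhibitor of calcineurin and a readout of its activity, rose by 0.93 on the log2 scale, and Csrp3, the muscle LIM protein of the Z-disc, by 0.61.

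Other classical members did not pass the test as reported. Nppa, encoding atrial natriuretic peptide, had 75.3, 125 and 215 RPKM at 7 d, against 39.6, 108 and 61.7 RPKM at 24 h (log2 difference 0.97, adjusted p = 0.325), and its groups overlapped. Myh7, the slow myosin heavy chain of the fetal mouse ventricle, had 1764, 1872 and 1913 RPKM at 7 d, against 2140.0, 2798 and 2250.0 RPKM at 24 h (log2 difference -0.36, adjusted p = 0.0571), and Myh6, the adult isoform, had 5424, 5552 and 5767 RPKM at 7 d, against 6343, 7789 and 6347 RPKM at 24 h (log2 difference -0.28, adjusted p = 0.055). Both myosins were lower in every 7 d heart than in any 24 h heart. They were called lower with median-ratio scaling (adjusted p = 0.00666 for Myh7 and 0.00424 for Myh6 by limma), upper-quartile scaling and library quality weights, and Myh6 also at a mean of at least 5 RPKM (adjusted p = 0.0446). Uchl1, a deubiquitinating enzyme of neurons, was the only member called lower (log2 difference -0.60, adjusted p = 0.0307), and that call ended without 7 d replicate 1 (log2 difference -0.52, adjusted p = 0.0896), 7 d replicate 2 or 24 h replicate 2 or 3.

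The promoters of the 3 leading members with an M-CAT element, the binding motif of TEAD factors in muscle genes, are shown because these mRNAs rose together. They are the 250 bases before the RefSeq start on GRCm38.p6, at chr4:147985650-147985899, plus strand (Nppb), chr8:123894776-123895025, minus strand (Acta1) and chr19:36119845-36120094, minus strand (Ankrd1), with CATTCC or its reverse complement GGAATG in capitals.
Nppb: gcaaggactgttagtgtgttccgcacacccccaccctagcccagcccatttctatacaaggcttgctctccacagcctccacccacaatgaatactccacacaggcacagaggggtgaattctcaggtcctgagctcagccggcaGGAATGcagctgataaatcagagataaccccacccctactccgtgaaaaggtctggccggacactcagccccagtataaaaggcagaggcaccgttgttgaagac
Acta1: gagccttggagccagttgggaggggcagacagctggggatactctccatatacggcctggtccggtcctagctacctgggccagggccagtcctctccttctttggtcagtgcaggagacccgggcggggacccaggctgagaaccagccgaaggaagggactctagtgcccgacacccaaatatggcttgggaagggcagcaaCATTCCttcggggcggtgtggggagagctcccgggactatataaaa
Ankrd1: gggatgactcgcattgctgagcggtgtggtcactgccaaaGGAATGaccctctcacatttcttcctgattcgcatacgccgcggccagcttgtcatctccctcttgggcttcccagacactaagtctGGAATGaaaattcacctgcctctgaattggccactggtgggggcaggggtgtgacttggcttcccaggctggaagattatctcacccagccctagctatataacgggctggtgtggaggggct
The motif lies in 10.6% of the 8482 promoters of tested genes. It was found in these 3 of 8 promoters of stress genes called higher and in 4 of 9 promoters of stress genes that were not called.

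**Figure D3:**
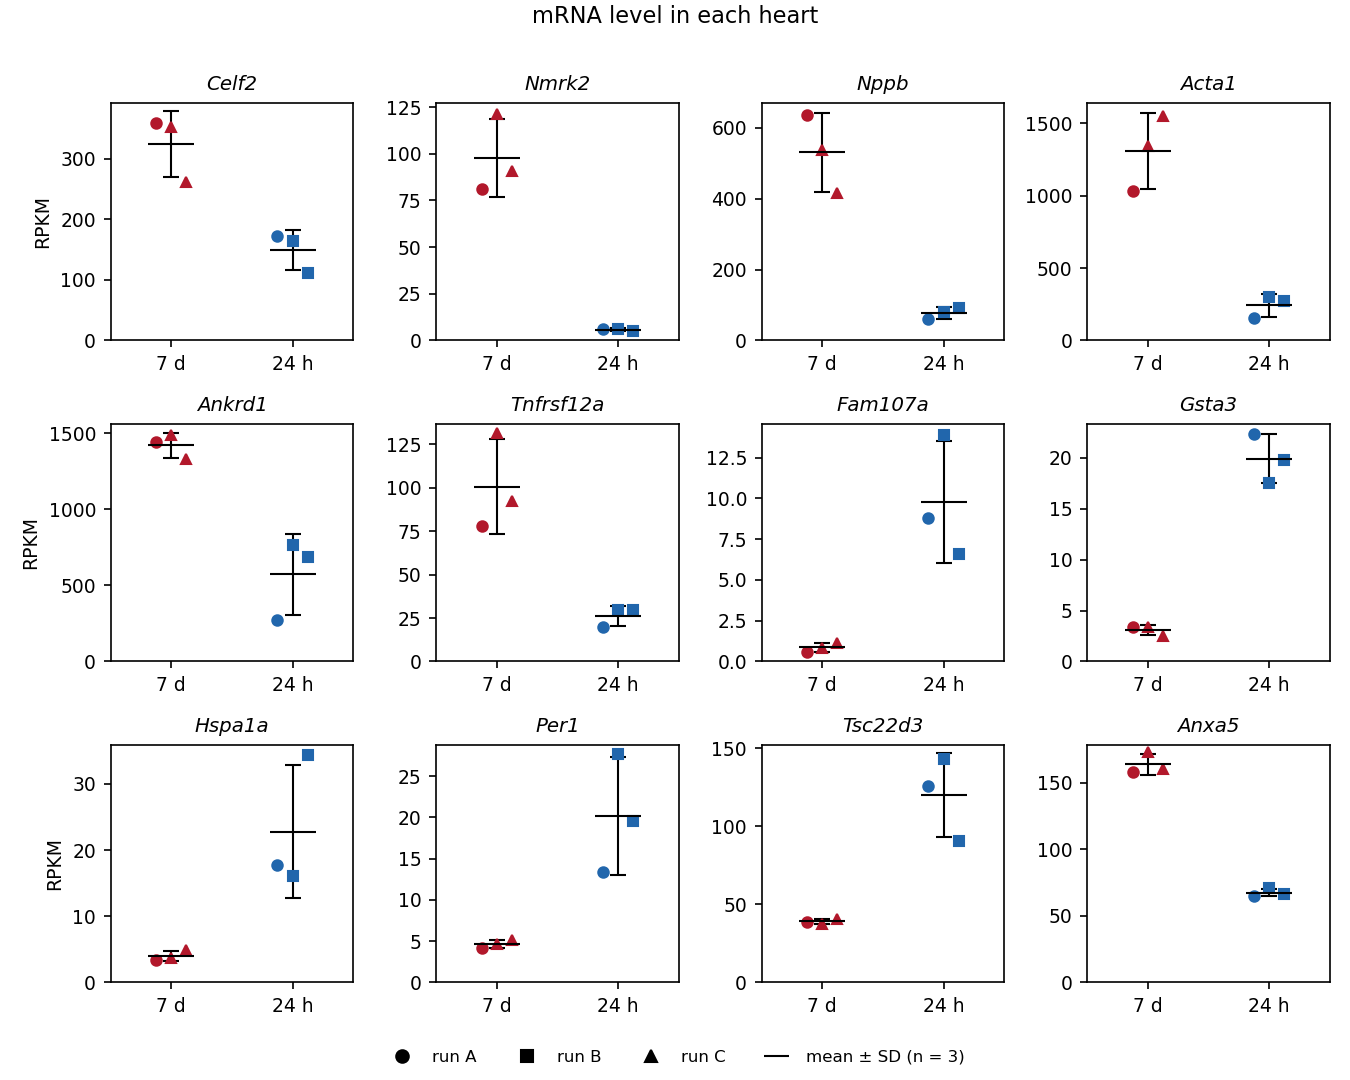
RPKM (vertical axis, from 0) of 12 genes in the 3 hearts at 7 d (red) and the 3 hearts at 24 h (blue) of CELF2 induction (horizontal axis), with symbols for runs and bars for the mean ± SD. The groups do not overlap in any of these panels. Nmrk2 lies at 81.2 to 122 RPKM at 7 d and at 4.95 to 6.4 RPKM at 24 h, and Gsta3 at 2.48 to 3.41 RPKM at 7 d and 17.6 to 22.4 RPKM at 24 h.

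Nmrk2 showed the largest difference of all genes tested. It encodes the muscle form of nicotinamide riboside kinase, which makes nicotinamide mononucleotide, a precursor of NAD. It had 81.2, 122 and 90.8 RPKM at 7 d, against 5.98, 6.4 and 4.95 RPKM at 24 h (log2 difference 3.96, standard error 0.27, adjusted p = 1.33e-06). No 7 d heart came near a 24 h heart, and in 72 h hearts the mean was 8.12 RPKM. Nmrk2, listed as Itgb1bp3, lies on chromosome 10 of mm9 from 80660915 to 80664782 (minus strand), and its exons overlap those of 2310050B05Rik on the opposite strand.

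Other enzymes of NAD synthesis showed smaller differences. Among 18 genes of NAD synthesis and use 2 were higher and 3 lower, or 11.1% and 16.7%, beside 11.3% and 3.81% of all genes. Nampt, the enzyme of the salvage route from nicotinamide, fell to 34.3 RPKM at 7 d, against 55.2 RPKM at 24 h (log2 difference -0.69, adjusted p = 0.0147), and Nmnat3, the mitochondrial adenylyltransferase, fell by 0.66 on the log2 scale. Naprt, which uses nicotinic acid, rose (0.62). The calls of all members but Nmrk2 ended without at least 1 single heart, among them Nampt without 7 d replicate 2 (log2 difference -0.59, adjusted p = 0.0774), Nmnat3 without 24 h replicate 2 (log2 difference -0.58, adjusted p = 0.0624) and Naprt without 7 d replicate 2 (log2 difference 0.52, adjusted p = 0.129).

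Thin filament and Z-disc genes moved in both directions. Of 40 sarcomere genes 8 were higher and 4 lower, both larger shares than the 11.3% and 3.81% of all genes. The median log2 difference of the 40 genes was -0.09, below the 0.13 of all genes. With median-ratio scaling the balance turned to 7 higher and 13 lower. Actc1, cardiac alpha-actin and among the most abundant mRNAs of the heart, had 8570.0, 8830.0 and 9434 RPKM at 7 d, against 5540.0, 6003 and 5267 RPKM at 24 h (log2 difference 0.68, standard error 0.08, adjusted p = 0.000169). Every 7 d heart was above every 24 h heart, and the call held in all 19 alternatives. Mybpc3, cardiac myosin binding protein C, rose by 0.56 on the log2 scale and Flnc, the filamin of the Z-disc, by 0.80.

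Tpm1, the main cardiac tropomyosin, was at 3465 ± 45.5 RPKM at 7 d and 4871 ± 504 RPKM at 24 h (SD, n = 3 each) and called lower (log2 difference -0.49). Tpm2, beta-tropomyosin of fetal and slow muscle, was at 69.1 ± 13.3 RPKM at 7 d and 25.7 ± 8.04 RPKM at 24 h (SD, n = 3 each) and called higher (1.44). The call of Tpm2 ended without 7 d replicate 2 (log2 difference 1.40, adjusted p = 0.0603), 7 d replicate 3 or 24 h replicate 1, and that of Tpm1 with quantile normalization (log2 difference -0.24, adjusted p = 0.094) or the run as a covariate. Myoz2, a calcineurin-binding Z-disc protein, fell to 360.0, 331 and 332 RPKM at 7 d, against 556, 522 and 518 RPKM at 24 h (log2 difference -0.64, standard error 0.07, adjusted p = 7.44e-05). Its groups did not overlap and its call held in all 19 alternatives, whereas Tnnc1, cardiac troponin C (-0.44), lost its call with quantile normalization (log2 difference -0.18, adjusted p = 0.22).

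At the costamere, which ties the sarcomere to the membrane and the matrix, 5 of 37 genes were higher and 1 lower, or 13.5% and 2.7%, near the 11.3% and 3.81% of all genes. Vcl (vinculin, 0.64), Ctnna1 (alpha-catenin, 0.51) and Itga3 (integrin alpha 3, 1.03) rose. Itgb6, an integrin subunit of epithelia, fell (-1.68), and it passed the filter of 1 RPKM through the 24 h hearts. In muscle protein breakdown 4 of 33 genes were higher and 3 lower, or 12.1% and 9.09%. Trim63, the ubiquitin ligase MuRF1, had 237, 270.1 and 265 RPKM at 7 d, against 117, 175 and 139 RPKM at 24 h (log2 difference 0.86, standard error 0.12, adjusted p = 0.00039), and its lowest 7 d heart was above its highest 24 h heart. Asb14 and Asb5, muscle members of a family of substrate receptors for cullin ligases, fell to 14.6 and 3.88 RPKM at 7 d, against 38.3 and 11.9 RPKM at 24 h (log2 differences -1.37 and -1.50).

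Anxa5, a calcium-dependent binder of membrane phospholipids, was higher at 7 d. It had 158, 173 and 160.2 RPKM at 7 d, against 65.3, 70.6 and 66.2 RPKM at 24 h (log2 difference 1.27, standard error 0.09, adjusted p = 1.55e-06). Within each group the hearts differed little, and the groups did not overlap. Prkar1a, the regulatory subunit of protein kinase A, was likewise higher in every 7 d heart, at 255 ± 17.5 RPKM at 7 d and 149 ± 9.58 RPKM at 24 h (SD, n = 3 each).

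Several basement membrane and fibrillar collagens rose. Of 52 genes of collagens and matrix 17 were higher and 3 lower, the higher ones being 32.7% against 11.3% of all genes, with a median log2 difference of 0.26 (0.14 with median-ratio scaling). Of the 17 increases 11 kept their calls without any single heart, and 11 genes were called higher without 7 d replicate 3. Col4a1, a chain of the network collagen of basement membranes, had 92.5, 140.0 and 188 RPKM at 7 d, against 41.04, 58.7 and 64.8 RPKM at 24 h (log2 difference 1.31, standard error 0.24, adjusted p = 0.00277). Its neighbour and partner Col4a2, whose exons overlap those of Col4a1 on the opposite strand, had 70.2, 109 and 145 RPKM at 7 d, against 24.8, 41.4 and 45.2 RPKM at 24 h (log2 difference 1.51, adjusted p = 0.0031). In both genes the run A heart was the lowest of the 7 d hearts and still above all 24 h hearts.

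Col3a1, a fibrillar collagen of soft tissues, had 68.4, 101 and 118 RPKM at 7 d, against 45.6, 40.7 and 48.4 RPKM at 24 h (log2 difference 1.05, standard error 0.16, adjusted p = 0.000587). Col5a3 (1.72), a minor fibrillar chain, Fbn1 (1.23), the fibrillin of microfibrils, Loxl2 (1.03), a collagen crosslinking enzyme, and Mmp14 (0.90), a membrane-bound collagenase, were called higher as well. Col1a1, the main fibrillar collagen, was at 57.3 ± 19.3 RPKM at 7 d and 32.1 ± 3.898 RPKM at 24 h (SD, n = 3 each), and its call (log2 difference 0.78, adjusted p = 0.0435) ended without any single heart other than 7 d replicate 1, down to log2 difference 0.54, adjusted p = 0.191 without 7 d replicate 3. In control hearts the means of Col1a1 and Col3a1 were 52.1 and 91.9 RPKM.

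The protease inhibitors Timp3 and Timp4 fell. Timp4, the member of the family most typical of the heart, had 2.43, 1.97 and 3.5 RPKM at 7 d, against 9.11, 18.8 and 15.2 RPKM at 24 h (log2 difference -2.22, standard error 0.43, adjusted p = 0.00375). Timp3, which binds the matrix, was at 25.5 ± 2.72 RPKM at 7 d and 67.7 ± 11.9 RPKM at 24 h (SD, n = 3 each, log2 difference -1.39), and its exons overlap those of Syn3 on the opposite strand. Both calls held in all 19 alternatives. Dcn, the proteoglycan decorin, was also called lower (-0.33), a call that ended without 7 d replicate 3 (log2 difference -0.30, adjusted p = 0.0765) or 24 h replicate 3.

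Summed levels of marker genes for fibroblasts overlapped between the groups. The summed level of 10 fibroblast markers, of which none was at 0, was 590 to 732 RPKM at 7 d and 653 to 707 RPKM at 24 h, and 2 of 10 were called higher, both of them collagens, and 1 (Dcn) lower. For 12 endothelial markers the sums were 1230 to 1480 RPKM at 7 d and 1530 to 1660 RPKM at 24 h, which did not overlap, with Kdr, a VEGF receptor, higher (0.67) and Ly6c1 lower (-0.81). Smooth muscle and pericyte markers summed to 908 to 1310 RPKM at 7 d and 741 to 1100 RPKM at 24 h, macrophage markers to 150 to 205 RPKM at 7 d and 160 to 181 RPKM at 24 h and atrial cardiomyocyte markers to 295 to 554 RPKM at 7 d and 277 to 417 RPKM at 24 h, overlapping in each case and with 0 calls in each list. In whole ventricle, a change in the number of cells of a type and a change in RNA per cell cannot be told apart.

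Genes of the cell cycle and of DNA replication were often higher at 7 d. Of 41 listed in the table, 33 reached a mean of 1 RPKM, and of these 14 were higher and 0 lower. Of the 14, 6 had a mean under 1 RPKM at 24 h and passed that filter through the 7 d hearts (Birc5, Ccna2, Ccnb2, Cdc20, Cdk1 and Top2a), so the share of increases is not set against that of all genes. In a fit with no filter 13 of these 33 were called higher and 0 lower, and at a mean of at least 5 RPKM 2 were called higher. Listed genes under 1 RPKM were not counted in either, so these counts do not remove the effect of the filter. With median-ratio scaling the numbers were 13 higher and 0 lower, and 10 of the 14 kept their calls without any single heart, and 3 members were called higher with the covariates together. Cdk1, the kinase that drives entry into mitosis, had 2.1, 3.57 and 4.53 RPKM at 7 d, against 0.38, 0.26 and 0.75 RPKM at 24 h (log2 difference 2.00, standard error 0.27, adjusted p = 0.000299). Ccna2, the cyclin A of S phase and G2, had 1.81, 2.19 and 3.92 RPKM at 7 d, against 0.24, 0.14 and 0.55 RPKM at 24 h (log2 difference 1.93, standard error 0.24, adjusted p = 0.000198), with exons that overlap those of Exosc9 on the opposite strand. Top2a, a topoisomerase of dividing cells, had 1.81, 2.3 and 2.96 RPKM at 7 d, against 0.19, 0.22 and 0.51 RPKM at 24 h (log2 difference 1.83, standard error 0.23, adjusted p = 0.000169).

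The 7 d heart of run A was the lowest of its group for these 3 genes, yet above all 24 h hearts. Ccnd1, the cyclin of the G1 phase, was more abundant, at 26.5 ± 5.54 RPKM at 7 d and 11.3 ± 2.27 RPKM at 24 h (SD, n = 3 each, log2 difference 1.19). The mitotic regulators Ccnb2 (1.46), Birc5 (1.70) and Cdc20 (1.04) and the replication helicase subunit Mcm5 (0.87) were also called higher. On the log2(RPKM + 0.5) scale the differences of such low genes are smaller than the ratios of their means, which was 7.68 for Top2a.

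The promoters of Cdk1 (chr10:69352913-69353162, minus strand) and Top2a (chr11:99024190-99024439, minus strand) are shown, from RefSeq on GRCm38.p6, because they carry the CHR element of genes expressed in G2 and mitosis. TTTGAA and its reverse complement TTCAAA are in capitals.
Cdk1: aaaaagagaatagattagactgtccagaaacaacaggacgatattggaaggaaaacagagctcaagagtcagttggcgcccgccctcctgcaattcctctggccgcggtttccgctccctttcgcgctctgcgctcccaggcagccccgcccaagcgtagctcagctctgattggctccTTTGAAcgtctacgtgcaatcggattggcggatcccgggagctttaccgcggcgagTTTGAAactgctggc
Top2a: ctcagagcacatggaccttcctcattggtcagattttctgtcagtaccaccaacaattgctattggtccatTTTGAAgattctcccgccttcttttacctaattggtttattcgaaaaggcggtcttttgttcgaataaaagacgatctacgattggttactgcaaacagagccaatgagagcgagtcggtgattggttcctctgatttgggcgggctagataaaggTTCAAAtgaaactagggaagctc
Over all promoters 10.4% hold the element. It was found in 5 of 12 promoters of cell cycle genes called higher (Cdk1, Top2a, Ccnb2, Cdc20 and Mcm2) and in 0 of 14 promoters of those not called. Of these, Cdk1, Top2a, Ccnb2 and Cdc20 passed the filter of 1 RPKM through the 7 d hearts, and members low in both groups were not tested. The filter thus shapes both counts, which only describe these lists and are not set against each other. The call of Mcm2, a subunit of the replication helicase (0.56), ended without 7 d replicate 2 (log2 difference 0.61, adjusted p = 0.0671) and without every other single heart but 7 d replicate 1.

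Genes known to be induced by glucocorticoids were often lower at 7 d. Of 24 tested, 14 were lower and 0 higher, which is 58.3% against 3.81% of all genes, and the median log2 difference was -1.01 beside 0.13 for all genes. Of the 14, 8 kept their calls without any single heart, and 8 genes were called lower without 7 d replicate 2 or without 24 h replicate 2. Fam107a passed the filter of 1 RPKM through the 24 h hearts. Per1 and Pdk4, counted here, are also counted below among clock genes and among PPAR targets. Fam107a, an actin-binding protein gene induced by stress and glucocorticoids (listed as BC055107, chromosome 14 of mm9 from 9128788 to 9150537 (minus strand)), was the largest decrease of all genes called. It had 0.57, 0.84 and 1.16 RPKM at 7 d, against 8.79, 13.9 and 6.59 RPKM at 24 h (log2 difference -2.88, standard error 0.34, adjusted p = 0.000135). Every 7 d heart was far below every 24 h heart.

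Tsc22d3, which encodes the leucine zipper protein GILZ, had 39.01, 37.8 and 40.7 RPKM at 7 d, against 126, 143 and 90.97 RPKM at 24 h (log2 difference -1.58, standard error 0.23, adjusted p = 0.000508). The 7 d hearts were nearly alike and the 24 h hearts spread more widely. Zbtb16, a zinc finger repressor, was at 9.27 ± 0.903 RPKM at 7 d and 23.4 ± 0.412 RPKM at 24 h (SD, n = 3 each, log2 difference -1.29), Mt1, a metallothionein, at 132 ± 29.3 RPKM at 7 d and 281 ± 39.5 RPKM at 24 h (SD, n = 3 each, log2 difference -1.10), and Map3k6, a stress kinase, fell by 1.69 on the log2 scale. Ddit4, an inhibitor of mTORC1, had 6.14, 9.02 and 9.39 RPKM at 7 d, against 18.2, 50.95 and 22.7 RPKM at 24 h (log2 difference -1.72, adjusted p = 0.0215). Replicate 2 was the highest 24 h heart, and without it the call ended (log2 difference -1.28, adjusted p = 0.0877), as it did without 7 d replicate 1 or 2.

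Fkbp5, a chaperone that inhibits the glucocorticoid receptor (-1.08), Sgk1, a kinase regulating ion transport (-0.71), and Klf15, a metabolic transcription factor (-0.76), were called lower, and these calls ended without single hearts, among them 24 h replicate 2 (adjusted p = 0.0784 for Fkbp5, 0.112 for Sgk1 and 0.0966 for Klf15, limma). The mRNA of the receptor itself, Nr3c1, had 12.1, 12.3 and 7.21 RPKM at 7 d, against 9.98, 8.01 and 5.99 RPKM at 24 h (log2 difference 0.37, adjusted p = 0.547), and its groups overlapped.

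Clock repressors were lower and the activator Arntl higher at 7 d. In the clock, Arntl (BMAL1) and Clock activate genes through E-boxes, and the products of the Per and Cry genes repress them. Of 22 clock genes 2 were higher and 6 lower, or 9.09% and 27.3%, beside 11.3% and 3.81% of all genes, and Arntl passed the filter of 1 RPKM through the 7 d hearts. Arntl had 4.54, 5.02 and 5.7 RPKM at 7 d, against 1.5, 0.65 and 0.68 RPKM at 24 h (log2 difference 2.00, standard error 0.19, adjusted p = 2.54e-05). Per1 had 4.19, 4.67 and 5.2 RPKM at 7 d, against 13.4, 27.6 and 19.5 RPKM at 24 h (log2 difference -1.94, standard error 0.43, adjusted p = 0.00831), and Per2 had 2.39, 2.34 and 2.5 RPKM at 7 d, against 7.45, 12.1 and 10.6 RPKM at 24 h (log2 difference -1.83, standard error 0.21, adjusted p = 0.000113). For each of the 3 genes the groups did not overlap.

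Further repressors and outputs fell, namely Cry1 (-0.87), Per3 (-0.68), the repressor Ciart (-1.36) and the output transcription factor Tef (-0.63), and all 6 decreases kept their calls without any single heart. Per1, Per3, Ciart and Tef lost them with the covariates together. Nr1d1 (REV-ERB alpha), which represses Arntl, was called higher (log2 difference 0.97, adjusted p = 0.0399) and lost its call without 24 h replicate 1 (log2 difference 0.58, adjusted p = 0.152), the heart with the lowest value, or 7 d replicate 2 or 3. Its exons overlap those of Thra on the opposite strand. Dbp, an output gene of the clock, had 28.8, 30.7 and 31.4 RPKM at 7 d, against 29.5, 58.1 and 59.0 RPKM at 24 h (log2 difference -0.62, adjusted p = 0.267).

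Across all groups, mean Arntl was 0.623 RPKM in control hearts, 6.45 RPKM at 12 h, 0.943 RPKM at 24 h, 1.12 RPKM at 72 h and 5.09 RPKM at 7 d. Mean Per2 was 7.68 RPKM in control hearts, 1.35 RPKM at 12 h, 10.04 RPKM at 24 h, 5.26 RPKM at 72 h and 2.41 RPKM at 7 d. The 7 d hearts thus had high Arntl with low Per2, as the 12 h hearts did, while control, 24 h and 72 h hearts had low Arntl. The glucocorticoid-induced gene Tsc22d3 followed another order, with means of 101 RPKM in control hearts, 74.6 RPKM at 12 h, 120.2 RPKM at 24 h, 76.5 RPKM at 72 h and 39.2 RPKM at 7 d. The hour of harvest is unknown here, and its part in these values was not tested.

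The promoters of Per1 (chr11:69098699-69098948, plus strand) and Ciart (chr3:95882229-95882478, minus strand) are shown, from RefSeq on GRCm38.p6, as those of clock repressors that fell while Arntl rose. The E-box CACGTG, which reads the same on both strands, is in capitals.
Per1: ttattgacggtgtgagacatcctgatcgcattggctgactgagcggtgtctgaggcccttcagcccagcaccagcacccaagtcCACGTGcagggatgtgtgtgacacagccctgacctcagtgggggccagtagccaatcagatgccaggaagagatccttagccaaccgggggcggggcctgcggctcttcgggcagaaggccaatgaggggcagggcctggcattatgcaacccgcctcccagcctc
Ciart: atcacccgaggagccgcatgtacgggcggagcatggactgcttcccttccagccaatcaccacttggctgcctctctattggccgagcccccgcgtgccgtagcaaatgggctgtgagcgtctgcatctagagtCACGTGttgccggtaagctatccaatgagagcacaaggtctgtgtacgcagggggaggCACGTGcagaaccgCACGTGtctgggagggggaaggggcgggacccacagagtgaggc
An E-box of this form lies in 8.82% of all promoters of tested genes. It was found in 4 of 5 promoters of clock genes called lower (Per1, Cry1, Ciart and Tef), in 0 of 2 of those called higher and in 1 of 10 of those not called.

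**Figure D4:**
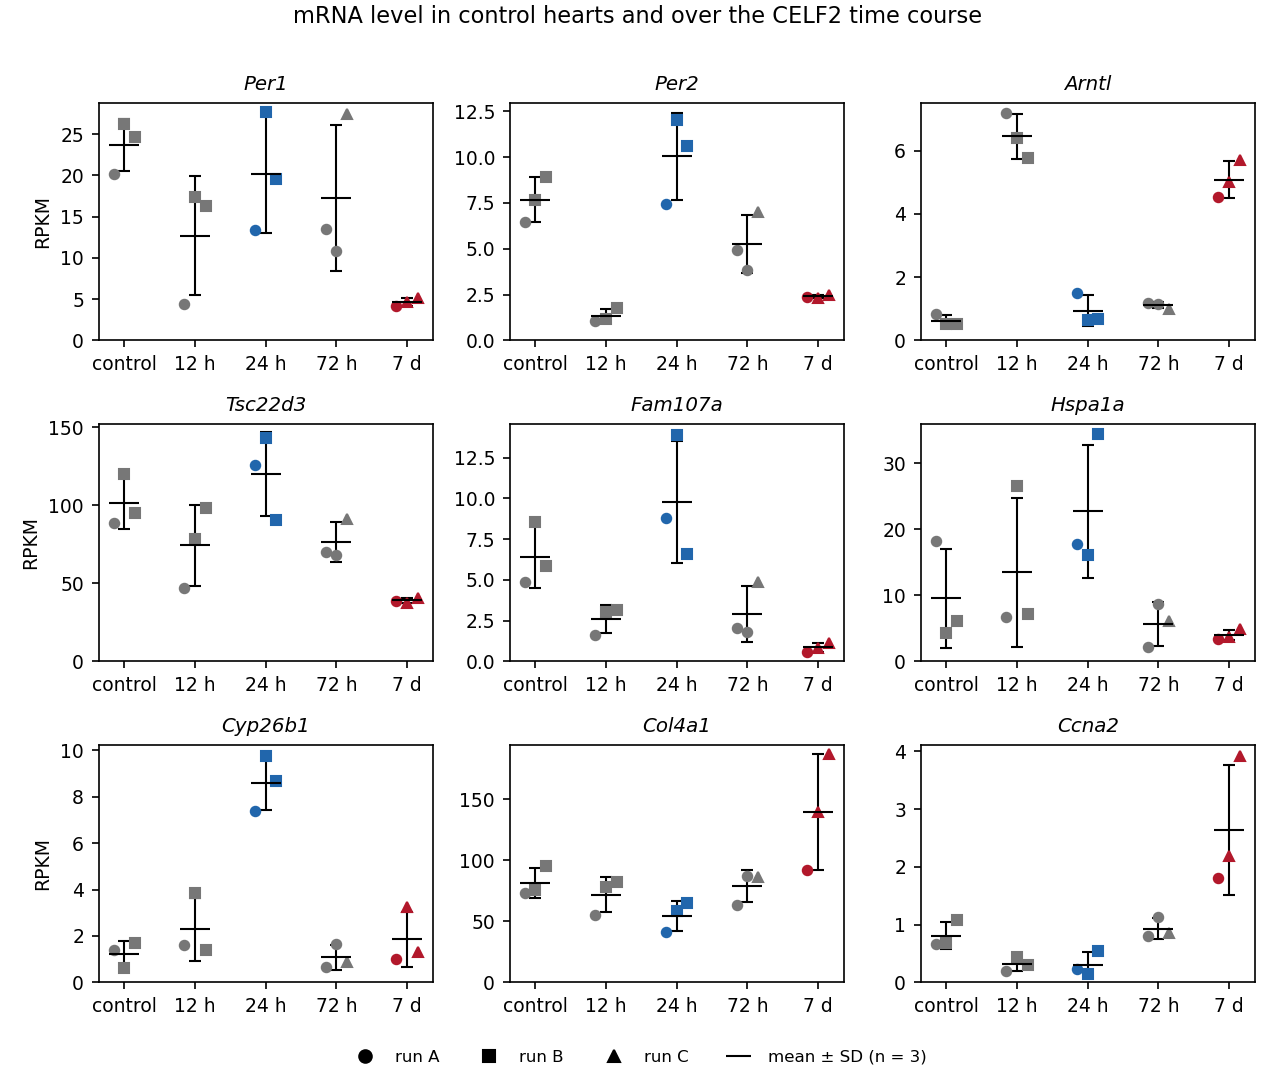
RPKM (vertical axis, from 0) of 9 genes in control hearts and in hearts induced for 12 h, 24 h, 72 h or 7 d (horizontal axis), with a point per heart, symbols for runs and bars for the mean ± SD of 3 hearts. Arntl is high at 12 h and 7 d alone, Cyp26b1 at 24 h alone (mean 8.597 RPKM), and Tsc22d3 and Per1 are lowest at 7 d, with means of 39.2 and 4.69 RPKM.

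Heat shock genes were a further group of decreases. Of 43 heat shock and chaperone genes 3 were higher and 11 lower, the lower ones being 25.6% against 3.81% of all genes, while the median log2 difference was -0.05. The number lower became 4 without 7 d replicate 2 or 24 h replicate 3 and 6 without 7 d replicate 3 or 24 h replicate 1. Hspa1a and Hspa1b, neighbouring genes for the inducible HSP70, had 3.44, 3.76 and 4.91 RPKM at 7 d, against 17.8, 16.1 and 34.4 RPKM at 24 h (Hspa1a, log2 difference -2.29, adjusted p = 0.0158), and 4.12, 4.32 and 5.56 RPKM at 7 d, against 18.9, 18.1 and 37.3 RPKM at 24 h (Hspa1b, log2 difference -2.22, adjusted p = 0.016). The groups did not overlap, and 24 h replicate 3 was the highest heart for both. Their coding sequences are nearly identical, so the division of reads between them is uncertain. The call of Hspa1a ended without 24 h replicate 3 (log2 difference -1.96, adjusted p = 0.0756) and without 7 d replicate 2 (log2 difference -2.25, adjusted p = 0.057), and so did that of Hspa1b (log2 difference -1.89, adjusted p = 0.0764, and log2 difference -2.18, adjusted p = 0.0582).

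Other chaperones and cochaperones fell as well. Dnajb1, the main HSP40 partner of inducible HSP70, had 7.39, 7.67 and 7.14 RPKM at 7 d, against 21.03, 18.4 and 23.6 RPKM at 24 h (log2 difference -1.44, standard error 0.17, adjusted p = 0.000135). Dnaja1, another HSP40, was at 40.98 ± 7.26 RPKM at 7 d and 90.5 ± 16.2 RPKM at 24 h (SD, n = 3 each, log2 difference -1.13), Hsph1, the exchange factor HSP110, at 17.3 ± 1.95 RPKM at 7 d and 31.1 ± 2.83 RPKM at 24 h (SD, n = 3 each, log2 difference -0.83), and Hspa8, the constitutive HSC70, at 711 ± 31.96 RPKM at 7 d and 957 ± 18.3 RPKM at 24 h (SD, n = 3 each, log2 difference -0.43). These 4 kept their calls without any single heart. Hsp90aa1, the inducible HSP90 (-0.72), the HSP90 cochaperones Chordc1 (-0.52) and Ahsa1 (-0.31) and the mitochondrial chaperonins Hspd1 (-0.33) and Hspe1 (-0.49) did not, and without 7 d replicate 2 their adjusted p ranged from 0.0841 for Hsp90aa1 to 0.198 for Hspd1 by limma.

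Of the 3 members called higher, 2 kept their calls without any single heart. Hspb3, a small heat shock protein of muscle, had 16.2, 21.5 and 17.6 RPKM at 7 d, against 7.26, 10.9 and 10.1 RPKM at 24 h (log2 difference 0.94, standard error 0.15, adjusted p = 0.000822), and Hspa1l, an HSP70 paralog adjacent to Hspa1a, rose by 0.64 on the log2 scale with no overlap between the groups. Hsf1, the transcription factor of the heat shock response, had 19.2, 20.7 and 24.1 RPKM at 7 d, against 16.2, 20.7 and 17.3 RPKM at 24 h (log2 difference 0.23, adjusted p = 0.368), and its groups overlapped.

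Promoters of 3 of these decreases are shown because they carry the heat shock element, the binding motif of HSF1. They lie at chr17:34972157-34972406, minus strand (Hspa1a), chr4:40722218-40722467, plus strand (Dnaja1) and chr5:149636337-149636586, minus strand (Hsph1) in RefSeq on GRCm38.p6, with inverted repeats of the form GAANNTTC or TTCNNGAA in capitals.
Hspa1a: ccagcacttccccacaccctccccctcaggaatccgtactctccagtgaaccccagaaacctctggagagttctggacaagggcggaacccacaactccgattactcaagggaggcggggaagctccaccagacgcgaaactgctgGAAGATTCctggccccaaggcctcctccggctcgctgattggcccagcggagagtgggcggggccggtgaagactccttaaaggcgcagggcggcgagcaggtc
Dnaja1: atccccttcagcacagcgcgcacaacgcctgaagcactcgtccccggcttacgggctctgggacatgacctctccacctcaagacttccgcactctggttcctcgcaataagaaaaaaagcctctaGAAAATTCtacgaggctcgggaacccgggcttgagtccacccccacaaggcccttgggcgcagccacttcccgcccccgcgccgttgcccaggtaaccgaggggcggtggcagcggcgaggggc
Hsph1: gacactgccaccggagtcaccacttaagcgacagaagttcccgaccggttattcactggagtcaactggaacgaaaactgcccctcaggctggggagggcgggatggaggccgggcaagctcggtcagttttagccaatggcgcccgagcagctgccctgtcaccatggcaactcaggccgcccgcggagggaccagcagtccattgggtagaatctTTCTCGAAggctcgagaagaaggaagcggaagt
Such a repeat lies in 9.96% of all promoters of tested genes. It was found in 5 of 9 promoters of list members called lower (Dnaja1, Hspa1a, Hspa1b, Hspe1 and Hsph1), in 1 of 3 of those called higher (Hspb3) and in 3 of 23 of those not called.

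Some genes of fatty acid use and of the respiratory chain were lower at 7 d. Among 30 genes of fatty acid oxidation 2 were higher and 7 lower, among 27 PPAR targets and fasting genes 2 were higher and 6 lower, and among 78 genes of the respiratory chain and ATP synthase 0 were higher and 10 lower. Their median log2 differences were -0.21, -0.25 and -0.15, all below the 0.13 of all genes, and the shares called lower were 23.3%, 22.2% and 12.8%, beside 3.81% of all genes. The 7 decreases in fatty acid oxidation became 2 without 7 d replicate 2 or 7 d replicate 3 and 4 when any of the 24 h hearts was left out, the 6 among PPAR targets became 3 without 7 d replicate 2, and the 10 in the respiratory chain became 6 without 24 h replicate 3. Adipocyte markers summed to 778 to 867 RPKM at 7 d and 971 to 1020 RPKM at 24 h without overlap, 0 of 4 tested were called, and their part in these differences was not tested. With median-ratio scaling, which sets the median of all genes near 0, the calls were 0 higher and 18 lower, 0 higher and 11 lower and 0 higher and 22 lower. Lists share members, such as Pdk4, which is counted among PPAR targets and among glucocorticoid-induced genes, so counts of different lists are not independent.

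Pdk4, the kinase that shuts off pyruvate dehydrogenase in fasting, had 41.3, 27.8 and 45.2 RPKM at 7 d, against 98.5, 198 and 77.9 RPKM at 24 h (log2 difference -1.61, standard error 0.33, adjusted p = 0.00507). Txnip, an inhibitor of glucose uptake and of thioredoxin, was at 84.9 ± 8.95 RPKM at 7 d and 196 ± 55.6 RPKM at 24 h (SD, n = 3 each, log2 difference -1.17). No 7 d heart overlapped a 24 h heart in either of these genes. Acadm (-0.41) and Eci1 (-0.43), enzymes of beta-oxidation, kept their calls without any single heart, whereas Fabp3, the abundant fatty acid carrier of the heart (log2 difference -0.55, adjusted p = 0.0258), lost its call without 7 d replicate 2 (log2 difference -0.48, adjusted p = 0.106), 7 d replicate 3 or 24 h replicate 1 or 2. Against most other members, Cpt1a, the liver isoform of the entry enzyme, was called higher (0.65). That call ended with median-ratio scaling (log2 difference 0.53, adjusted p = 0.0508) and without 7 d replicate 2 (log2 difference 0.66, adjusted p = 0.0879). Hadh of the same list was called higher too. Its call ended with median-ratio scaling (log2 difference 0.269, adjusted p = 0.0762) and without 7 d replicate 2 (log2 difference 0.385, adjusted p = 0.0562).

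In the respiratory chain, Cox7a1, the muscle isoform of a cytochrome oxidase subunit, had 833, 894 and 943 RPKM at 7 d, against 1349, 1292 and 1584 RPKM at 24 h (log2 difference -0.66, standard error 0.10, adjusted p = 0.000734). Sdhc, a membrane anchor of complex II, was at 211 ± 31.02 RPKM at 7 d and 329 ± 16.2 RPKM at 24 h (SD, n = 3 each, log2 difference -0.65), and Ndufc2 (-0.58) and Ndufs6 (-0.51) of complex I were lower as well. For these 4 the groups did not overlap. Idh2, the mitochondrial NADP-dependent isocitrate dehydrogenase, was at 644 ± 39.9 RPKM at 7 d and 953 ± 82.7 RPKM at 24 h (SD, n = 3 each, log2 difference -0.56).

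In glycolysis and glycogen metabolism, 5 of 31 genes were higher and 2 lower, or 16.1% and 6.45%, beside 11.3% and 3.81% of all genes. Ugp2, which makes the glucose donor for glycogen, had 211, 182 and 179 RPKM at 7 d, against 107, 85.6 and 93.4 RPKM at 24 h (log2 difference 1.00, standard error 0.12, adjusted p = 0.000163). Pfkp, the platelet isoform of phosphofructokinase, was at 31.3 ± 1.29 RPKM at 7 d and 15.8 ± 1.13 RPKM at 24 h (SD, n = 3 each, log2 difference 0.96) and Hk1, the hexokinase of the fetal heart, at 67.5 ± 7.56 RPKM at 7 d and 40.3 ± 3.45 RPKM at 24 h (SD, n = 3 each, log2 difference 0.73). Pfkfb1, an isoform of the enzyme that sets the level of a phosphofructokinase activator, fell to 2.71, 2.27 and 2.79 RPKM at 7 d, against 8.26, 9.53 and 8.1 RPKM at 24 h (log2 difference -1.56, standard error 0.15, adjusted p = 2.11e-05). All 4 were without overlap between groups.

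Among 77 genes of the mitochondrial ribosome 14 were higher and 1 lower, or 18.2% and 1.3%, beside 11.3% and 3.81% of all genes. Of the increases, 6 held without any single heart, among them Mrpl16 (0.53), Mrpl19 (0.63) and Mrps18b (0.72). The median of the 77 genes, 0.16, was close to that of all genes, and with median-ratio scaling 7 higher and 2 lower were called. Of 75 cytosolic ribosomal protein genes 2 were higher (2.67%) and 0 lower. Of 62 genes of translation initiation and aminoacyl-tRNA synthetases 8 were higher and 1 lower, or 12.9% and 1.61% (with median-ratio scaling 2 higher and 2 lower). Eif3m, a subunit of initiation factor 3, stood against its list. It had 27.6, 25.5 and 26.4 RPKM at 7 d, against 73.2, 63.1 and 67.8 RPKM at 24 h (log2 difference -1.34, standard error 0.09, adjusted p = 1.33e-06). The groups were far apart, and its exons overlap those of Ccdc73 on the opposite strand.

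Genes of the integrated stress response moved in both directions. Of 33 genes of ATF4 and the unfolded protein response 4 were higher and 3 lower, or 12.1% and 9.09%, beside 11.3% and 3.81% of all genes. Among the higher genes, Mthfd2 passed the filter of 1 RPKM through the 7 d hearts. Atf4 itself was at 42.3 ± 1.11 RPKM at 7 d and 59.5 ± 0.5804 RPKM at 24 h (SD, n = 3 each, log2 difference -0.49) and Slc3a2, an amino acid transporter subunit that it induces, fell (-0.75), while Ero1a, an oxidase of the endoplasmic reticulum (0.67), and Gdf15 rose. The call of Atf4 ended with the run as a covariate (log2 difference -0.40, adjusted p = 0.0677 by limma) and without both run A hearts. With the covariates together, the calls of Atf4 (log2 difference -0.17), Slc3a2 and Ero1a ended.

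Of 34 genes of calcium cycling 3 were higher and 3 lower, or 8.82% each way, beside 11.3% and 3.81% of all genes. Among the lower genes, Ppp1r1a passed the filter of 1 RPKM through the 24 h hearts. Itpr1, the IP3 receptor, had 20.9, 20.8 and 12.6 RPKM at 7 d, against 6.2, 4.82 and 3.59 RPKM at 24 h (log2 difference 1.79, standard error 0.30, adjusted p = 0.00158), and its groups did not overlap. Pln, encoding phospholamban, the inhibitor of the calcium pump SERCA, had 1594, 1621 and 1532 RPKM at 7 d, against 2097, 2357 and 2341 RPKM at 24 h (log2 difference -0.52, standard error 0.10, adjusted p = 0.0029), and S100a1, an activator of the pump, was at 677 ± 65.7 RPKM at 7 d and 1084 ± 78.5 RPKM at 24 h (SD, n = 3 each, log2 difference -0.68). Both were lower in every 7 d heart, and the call of Pln ended with quantile normalization (log2 difference -0.31, adjusted p = 0.0666).

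Of 22 potassium channel genes 5 were higher and 1 lower, or 22.7% and 4.55%, beside 11.3% and 3.81% of all genes. The increases included inward rectifiers (Kcnj5 0.75, Kcnj12 0.79 and Kcnj14 1.22 on the log2 scale). Of 31 other channel, pump and connexin genes 5 were higher and 1 lower, or 16.1% and 3.23%, not far from the shares of all genes. The lower gene, Clcn1, passed the filter of 1 RPKM through the 24 h hearts. Gja1, encoding connexin 43 of the intercalated disc, had 116, 126 and 136 RPKM at 7 d, against 62.1, 82.4 and 72.1 RPKM at 24 h (log2 difference 0.80, standard error 0.13, adjusted p = 0.000818). Hcn2, the ventricular pacemaker channel (0.98), and Atp1b1, a subunit of the sodium pump (0.86), rose as well. With the covariates together, the calls of Gja1, Hcn2, Kcnj5, Kcnj12 and Kcnj14 ended, and 0 potassium channel genes were called higher.

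In adrenergic and G protein signalling, 4 of 37 genes were higher and 2 lower, or 10.8% and 5.41%, near the 11.3% and 3.81% of all genes. Rgs2, which limits signalling through Gq, fell to 6.69, 7.79 and 8.07 RPKM at 7 d, against 22.9, 22.2 and 18.7 RPKM at 24 h (log2 difference -1.44, standard error 0.16, adjusted p = 6.23e-05). Its groups did not overlap. Markers of Schwann cells and neurons summed to 15.8 to 18.1 RPKM at 7 d and 22.7 to 25.3 RPKM at 24 h, and 2 of 3 tested were lower. Adra1d, an alpha-1 adrenergic receptor, was at 2.2 ± 0.532 RPKM at 7 d and 0.803 ± 0.136 RPKM at 24 h (SD, n = 3 each, log2 difference 1.04). It passed the filter of 1 RPKM through the 7 d hearts. Pde4b, a cAMP phosphodiesterase, rose by 0.84 on the log2 scale.

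Enzymes that conjugate and oxidise foreign compounds were among the decreases. In the list of glutathione and antioxidant genes, 8 of 47 were lower and 4 higher. Of all genes, 3.81% were lower and 11.3% higher. The list was mixed in direction, with 22 positive and 25 negative log2 differences. Its median was -0.005, beside 0.13 for all genes. Gsta3, an alpha class glutathione S-transferase (chromosome 1 of mm9 from 21230670 to 21255442 (plus strand)), had 3.41, 3.35 and 2.48 RPKM at 7 d, against 22.4, 17.6 and 19.8 RPKM at 24 h (log2 difference -2.52, standard error 0.14, adjusted p = 3.76e-07). The groups were far apart, with little spread within each. Mgst1, the microsomal transferase (-1.12), Ephx1, an epoxide hydrolase (-0.91), and Gstm1 (-0.64) and Gstm2 (-0.57) fell too, and the last are members of a family of similar sequence, so that the split of reads between them is uncertain.

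Fmo2, a flavin monooxygenase, had 5.7, 6.78 and 5.61 RPKM at 7 d, against 19.4, 25.6 and 21.1 RPKM at 24 h (log2 difference -1.78, standard error 0.19, adjusted p = 5.23e-05). Adh1, an alcohol dehydrogenase that also oxidises retinol, had 5.66, 5.17 and 7.43 RPKM at 7 d, against 18.8, 31.1 and 24.1 RPKM at 24 h (log2 difference -1.92, standard error 0.24, adjusted p = 0.000179). For both genes the groups did not overlap. Cyp26b1, the hydroxylase that degrades retinoic acid, had 1.02, 3.23 and 1.31 RPKM at 7 d, against 7.39, 9.73 and 8.67 RPKM at 24 h (log2 difference -2.06, standard error 0.37, adjusted p = 0.00242). In this gene the 24 h hearts stood apart from all other groups, since its mean was 1.23 RPKM in control hearts and 1.08 RPKM at 72 h.

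The other large decreases were of mixed function. Amy1, the salivary form of amylase, was at 2.16 ± 0.537 RPKM at 7 d and 11.1 ± 1.19 RPKM at 24 h (SD, n = 3 each, log2 difference -2.13), and its paralogs and its overlap with Rnpc3 on the same strand leave the origin of the reads uncertain. Rhobtb1, an atypical small GTPase, had 9.01, 9.3 and 12.1 RPKM at 7 d, against 28.6, 43.05 and 33.3 RPKM at 24 h (log2 difference -1.73, standard error 0.23, adjusted p = 0.000259), with no overlap. Acsm5, a mitochondrial medium-chain acyl-CoA synthetase, was at 1.03 ± 0.172 RPKM at 7 d and 5.21 ± 1.07 RPKM at 24 h (SD, n = 3 each, log2 difference -1.89).

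Among the other large increases, Colq, the collagen-like tail that anchors acetylcholinesterase at synapses, had 9.4, 11.5 and 12.9 RPKM at 7 d, against 2.12, 2.21 and 2.13 RPKM at 24 h (log2 difference 2.14, standard error 0.15, adjusted p = 1.51e-06). Its exons overlap those of Hacl1 on the same strand. Scgb1c1, a secretoglobin, had 55.7, 82.5 and 70.2 RPKM at 7 d, against 13.8, 22.4 and 21.4 RPKM at 24 h (log2 difference 1.84, standard error 0.23, adjusted p = 0.000176). Ccl7, a chemokine for monocytes, was at 3.1 ± 0.493 RPKM at 7 d and 0.423 ± 0.176 RPKM at 24 h (SD, n = 3 each, log2 difference 1.97), and Prnd, the prion relative doppel, at 5.68 ± 2.24 RPKM at 7 d and 1.03 ± 0.499 RPKM at 24 h (SD, n = 3 each, log2 difference 1.99). Prnd shares exons in the annotation with Prnp, which was called with a log2 difference of 0.56 and lost its call without 7 d replicate 2 (log2 difference 0.52, adjusted p = 0.0926), 7 d replicate 3 or 24 h replicate 1 or 3.

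Ccdc63, a coiled-coil protein known from the sperm flagellum, had 3.56, 4.4 and 4.62 RPKM at 7 d, against 0.93, 0.48 and 0.65 RPKM at 24 h (log2 difference 1.99, standard error 0.18, adjusted p = 1.2e-05), without overlap between groups. Its exons overlap those of Myl2, the ventricular myosin light chain, on the opposite strand. Myl2 had 10900.0, 9685 and 8958 RPKM at 7 d, against 12550.0, 10040.0 and 10210.0 RPKM at 24 h (log2 difference -0.15, adjusted p = 0.432), and its groups overlapped. Libraries were strand-specific, but whether the counting used strand is not given. In all, 54 of the 242 chosen genes found in the mm9 annotation have exons that overlap those of a gene on the opposite strand.

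Several lists held few calls. Of 30 interferon response genes 1 was higher and 0 lower. Of 19 genes of MHC class I and antigen presentation 0 were higher and 0 lower. Of 24 immediate early genes 1 was higher (Dusp5) and 2 lower, and of 43 proteasome genes 1 was higher and 2 lower. Of 28 genes of cholesterol and lipid synthesis 1 was higher (Lss) and 3 lower. Dusp5 and Lss passed the filter of 1 RPKM through the 7 d hearts. Each of these lists had a smaller share of called genes than the 15.1% of all genes. By direction, at most 4.17% of a list was higher, beside 11.3% of all genes. The share lower was 8.33% for immediate early genes, 4.65% for proteasome genes and 10.7% for cholesterol and lipid synthesis, beside 3.81% of all genes. In the last of these lists, 2 of the 3 decreases kept their calls without any single heart. Of 10 ventricular cardiomyocyte markers, which summed to 51100 to 53700 RPKM at 7 d and 54800 to 60000 RPKM at 24 h, 1 was higher (Actc1) and 1 lower (Pln), and none was at 0.

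**Figure D5:**
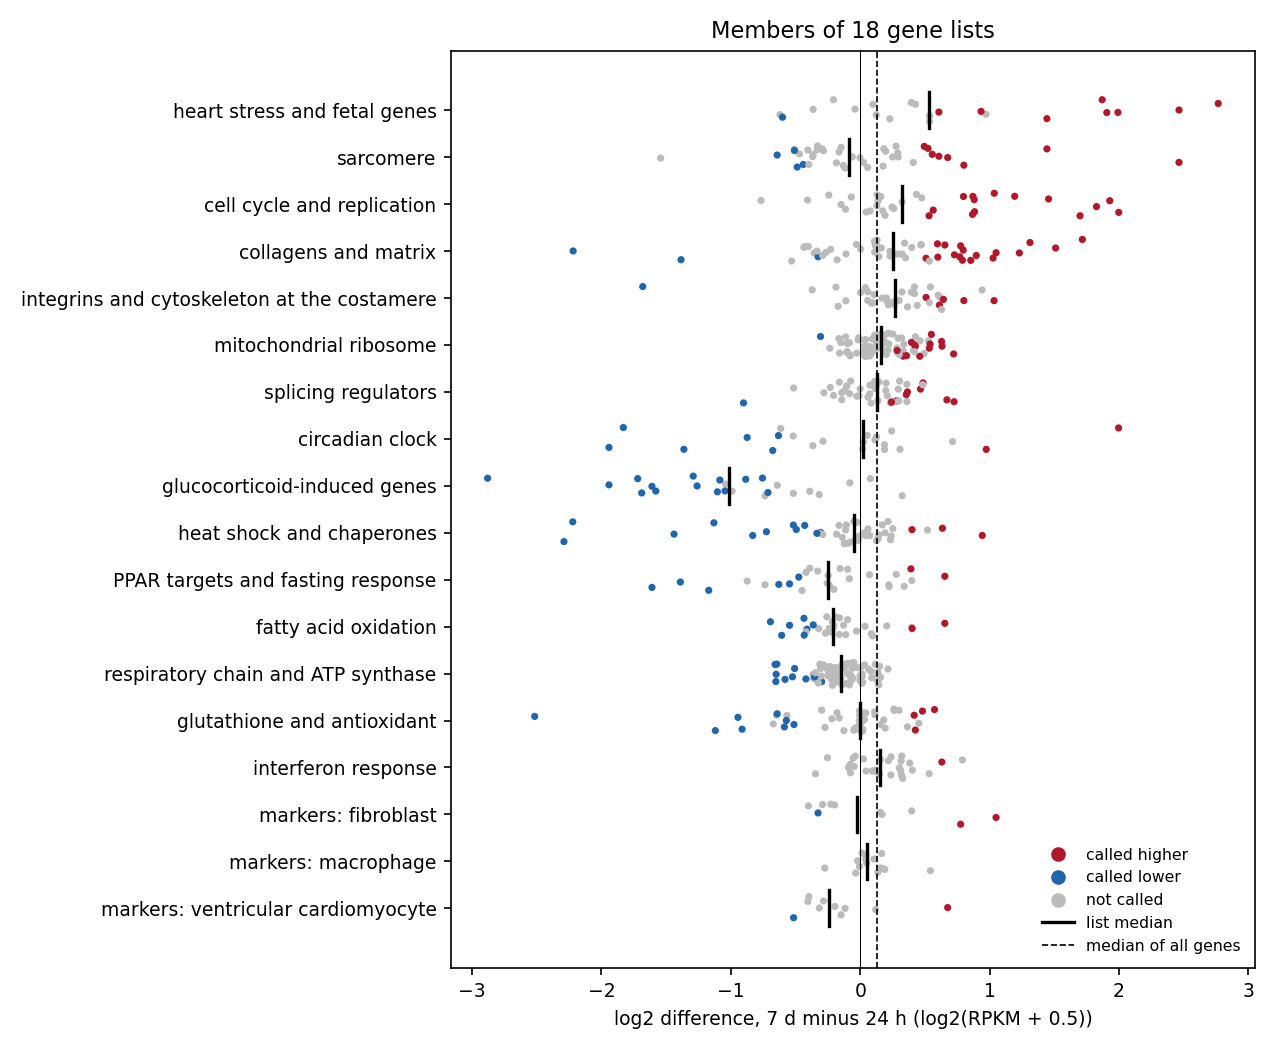
Log2 difference between 7 d and 24 h of CELF2 induction (horizontal axis) for the tested members of 18 gene lists (vertical axis). Points are genes, red where called higher, blue where called lower and grey where not called, black bars are list medians and the dashed line is the median of all genes at 0.13. Glucocorticoid-induced genes have a median of -1.01 and heart stress genes one of 0.54.

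The number of called genes differed between pairs of groups. Between 72 h and 24 h hearts 33 genes were called higher and 33 lower (0.624% of all genes), and between 7 d and 72 h hearts 200 were higher and 81 lower (2.66%). Against control hearts, 632 genes were higher and 434 lower at 7 d (10.1%), and 4 were higher and 6 lower at 24 h (0.0946%). These comparisons share hearts with each other. Of the leading increases, Nmrk2, Nppb and Acta1 had log2 differences of 3.54, 2.21 and 1.67 between 7 d and 72 h hearts, and of 0.42, 0.56 and 0.80 between 72 h and 24 h hearts.

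The 7 d hearts were also compared with control hearts, which lack the CELF2 transgene. Between 7 d and control hearts the log2 difference was 3.64 for Nmrk2, 3.31 for Nppb, 2.10 for Acta1, 0.96 for Anxa5, -2.34 for Fam107a and -1.35 for Tsc22d3, all called (adjusted p of 2.71e-06, 3.82e-07, 0.000327, 1.88e-05, 0.000711 and 0.00211 by limma). It was 0.03 for Col3a1 (adjusted p = 0.946), -0.90 for Hspa1a (adjusted p = 0.379) and 0.38 for Cyp26b1 (adjusted p = 0.593), none of which was called. Control hearts were taken at 72 h of doxycycline. Their summed Y-linked mRNA was 0.06, 0.04 and 53.4 RPKM, against 77.8, 59.3 and 58.6 RPKM at 7 d. They belong to runs A, B and B, and the 7 d hearts to runs A, C and C. The transgene, the length of doxycycline treatment, the run and the Y-linked mRNA cannot be told apart in these differences.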

How the data were processed

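Ventricles of 15 mice (5 groups of 3) were measured by RNA-seq of poly(A)+ RNA, sequenced as strand-specific read pairs, and 6 of these hearts enter the comparison of 7 d with 24 h. The authors mapped reads to mm9 with Bowtie and TopHat (versions not given in the sources used here) and deposited RPKM values, computed over the constitutive coding parts of RefSeq genes from uniquely mapping reads and scaled by the reads that were neither ribosomal nor mitochondrial. No column of values was left unused. Groups came from the titles and time points in the labels. Mentions of a Celf1 cassette in labels of induced hearts, and of Celf1 in muscle in the design text, contradict titles and genotypes and were not used.

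For log2(RPKM + 0.5), a single limma model (3.58.1, in R 4.3.3) with a trend of variance on mean and no covariate took in all 15 hearts. Genes that averaged 1 RPKM or more in the 6 hearts were tested and called at a Benjamini-Hochberg adjusted p under 0.05 over these 10576 genes. The pseudocount understates the change of low genes. The fit was tested on simulated data. Celf2 was also compared by an exact two-sided permutation test. Genes were named by rule when they were CELF or MBNL genes, among the 15 largest called increases or decreases with no overlap between groups, called members of a list (at most 4 in each direction, by adjusted p), or Y-linked. This gave 188 genes, and 56 more were chosen after their values were seen. Not all of them are described, and some are not reported here. The comparison and the gene lists were chosen with earlier results of these data known, and lists are described by counts and medians without a test. A gene can be a member of several lists and is then counted in each. Gene positions are those of GENCODE on mm9. Promoters are RefSeq sequences on GRCm38.p6, of which the 250 bases before the first listed start were searched on both strands, and their motifs were chosen with the lists. The CCAAT box, and the M-CAT element in sarcomere genes, were searched as well and are not described. Of the 16199 genes, 16146 matched a current gene record. Alternatives were pseudocounts of 0.1 and 1, no filter or a mean of at least 5 RPKM, median-ratio, upper-quartile and quantile scaling, run and Y-linked mRNA as covariates, the 6 hearts alone, library quality weights, and leaving out single hearts or both run A hearts. Python 3.11.15 with pandas 2.3.3, numpy 2.4.6 and matplotlib 3.10.9 was used for tables and figures.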

Additional observations from a re-analysis of the deposited data

How the results depend on the processing

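For genes higher and lower at 7 d the counts were 727 and 744 with median-ratio scaling, 676 and 822 with upper-quartile scaling and 709 and 729 with quantile normalization, against 1194 and 403 as reported. With run and Y-linked mRNA as covariates together they were 365 and 310, with library quality weights 4010 and 1193, and without both run A hearts, an alternative chosen after seeing the data, 677 and 219. Leaving out each heart in turn gave 568 to 1163 higher and 237 to 311 lower genes. Other pseudocounts, no filter, a mean of at least 5 RPKM, the run or the Y-linked level alone as covariate and the 6 hearts alone kept both counts within 1.5 times. Of the 181 called genes that the naming rule gave, 81 kept their calls under every alternative that included them. The ratio for Celf2 ranged from 1.92 to 2.38 when single hearts were left out, with an exact p of 0.1, or 0.2 without 24 h replicate 3. The direction of 2 Y-linked genes turned. Eif2s3y had a log2 difference of 1.91 in the reported fit and of -0.24 with Y-linked mRNA as a covariate, -0.24 with run and Y-linked mRNA and -0.12 without both run A hearts, and Kdm5d 1.08 and -0.015 with Y-linked mRNA. Both genes are part of the summed level that forms the Y-linked covariate, and the run A hearts include the 24 h heart without Y-linked mRNA. The turns of these 2 genes thus follow from the settings and say nothing about other genes. The cause of the other changes was not tested. No paired analysis was possible because the labels carry no replicate numbers. The run code, which replicate 1 of each group shares, was used as a covariate instead and gave 899 higher and 582 lower genes. Depth is unknown, so precision rests on the spread between 3 hearts a group, and differences of genes near 1 RPKM are understated by the pseudocount.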

Other observations

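Some further changes outside the gene lists, chosen after their values were seen, are given here. Apln, the peptide apelin, had 4.25, 7.06 and 9.85 RPKM at 7 d, against 0.99, 2.41 and 1.9 RPKM at 24 h (log2 difference 1.72, adjusted p = 0.00145), and its receptor Aplnr, found on endothelium, had 23.2, 29.1 and 38.98 RPKM at 7 d, against 8.01, 8.57 and 13.1 RPKM at 24 h (log2 difference 1.57, adjusted p = 0.000373). No 7 d heart overlapped a 24 h heart in either gene. Ccl2, the chemokine MCP-1, was at 3.36 ± 0.824 RPKM at 7 d and 0.833 ± 0.1201 RPKM at 24 h (SD, n = 3 each, log2 difference 1.52), next to Ccl7 in function, and Cx3cr1, the fractalkine receptor of monocytes and macrophages, was at 2.24 ± 0.5103 RPKM at 7 d and 0.33 ± 0.0781 RPKM at 24 h (SD, n = 3 each, log2 difference 1.71), while 0 of 15 macrophage markers were called. Tfrc, the transferrin receptor, had 16.8, 16.7 and 14.9 RPKM at 7 d, against 7.93, 2.87 and 4.21 RPKM at 24 h (log2 difference 1.70, adjusted p = 0.00324), and Mest, an imprinted gene of fetal tissues, had 9.02, 10.5 and 15.4 RPKM at 7 d, against 2.96, 2.6 and 3.85 RPKM at 24 h (log2 difference 1.72, adjusted p = 0.000253). With run and Y-linked mRNA together as covariates, the calls of Apln, Aplnr, Cx3cr1, Tfrc and Mest ended, all with unchanged direction.

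On the lower side, Retsat, a retinol saturase, was at 12.4 ± 0.646 RPKM at 7 d and 37.8 ± 4.6 RPKM at 24 h (SD, n = 3 each, log2 difference -1.56, adjusted p = 1.55e-06), and Xdh, xanthine dehydrogenase, had 14.4, 13.1 and 13.6 RPKM at 7 d, against 42.2, 40.5 and 32.7 RPKM at 24 h (log2 difference -1.45, adjusted p = 3.26e-05). Both kept their calls in all 19 alternatives, and their hearts did not overlap. Il33, an alarmin of endothelium and fibroblasts, was at 1.03 ± 0.192 RPKM at 7 d and 3.62 ± 0.663 RPKM at 24 h (SD, n = 3 each, log2 difference -1.42).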
